A study of Mus musculus with 4 samples.

Results

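Imprinted genes are transcribed mainly from the copy inherited from 1 parent. Of 40 listed mouse imprinted genes, 38 were rows of the expression table of 19321 genes, 15 of 16 maternally expressed and 23 of 24 paternally expressed. Rian and Peg13 were not matched to a row and are not analysed here. The members were chosen by name as known imprinted genes and were described in germ cells and in the somatic classes of the fetal mouse ovary. The cells came from XX gonads of C57BL/6 embryos at 4 embryonic days (E11.5 and E12.5, then E13.5 and E14.5), digested with TrypLE and profiled with the Chromium single-cell 3′ kit, version 2. The labels name no mutation, transgene or treatment. There was 1 library per stage. No difference was tested, no p-value is given, and stage and library cannot be told apart. A range in parentheses is a 95% interval and covers counting error only.

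An imprint is DNA methylation laid down in the egg or the sperm at a control region, and it is read in the embryo as silence of 1 copy of the linked genes. Primordial germ cells, the embryonic precursors of eggs and sperm, erase these marks around the time they settle in the gonad, while the somatic cells around them keep theirs. Many imprinted genes act on fetal and placental growth, and they often lie in clusters under a shared control region. Both chromosomes of an inbred C57BL/6 embryo carry the same sequence, so the reads do not tell the maternal from the paternal copy. The words maternally and paternally expressed below are background on each gene, not a measurement, and a level is the sum over both copies.

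Germ cells were cells with a count above 0 for at least 3 of Dazl, Ddx4, Dnd1, Mael, Dppa5a and Mov10l1. From the earliest to the latest stage there were 245, 650, 756 and 2410 of them, out of 4794, 4737, 4746 and 4693 cells kept. Somatic cells, which numbered 4389, 4020, 3920 and 1975, were the other cells except red blood cells, immune cells and a cluster of 55 cells with germ cell markers. That cluster, mostly from E11.5, was led by Dppa5a and Dppa3 with Phlda2 among its 10 leading genes, and entered no class. Within the somatic cells, clusters made without the members were named from markers as pre-granulosa-like (the supporting cells of the future follicles), interstitial-like, mesothelial-like and endothelial-like, and the names below stand for such cells. Interstitial cluster 7 (445 cells) had as many mesothelial as interstitial markers among its 10 leading genes, 3 of each, with 11 interstitial and 5 mesothelial markers raised. Pre-granulosa cluster 9 (465 cells) had 1 marker of its own type and 1 of rete or mesonephric epithelium (Pax8) there. Mesothelial cluster 24 (436 cells, 408 of them at E14.5) had 8 mesothelial and 5 pre-granulosa markers raised. The mesothelial markers summed to 1265, 1457, 2211 and 3614 CPM in the mesothelial class by stage. In the pre-granulosa class they summed to 2273, 2240, 2123 and 2233 CPM, so the name is least certain at the first 2 stages. The median germ cell carried 31268, 27740, 24829.5 and 15541 unique molecular identifiers (UMIs, counted transcripts) in stage order, and the median somatic cell 13781, 12131.5, 10462.5 and 9859. Levels pool the UMIs of all cells of 1 class within a library and are given as counts per 1000000 UMIs of that pool (CPM), in stage order where 4 values are given. Between 19 and 36 cell barcodes were shared by any pair of libraries.

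A difference was called by size. Such a call needed 50 UMIs or more in the pooled sums and 20 CPM or more on the higher side, together with a ratio of 2 or more whose exact binomial interval did not include equality. In germ against somatic cells, 24, 23, 25 and 25 members met the minimums. Of these, 2, 2, 3 and 4 were higher in germ cells, against 11.8, 14.2, 17.4 and 17.9% of all genes that met them, and 18, 17, 17 and 16 were lower, against 31.4, 27.9, 27.3 and 25.9% of all genes. The median log2 ratio of these members was -3.04, -2.99, -2.58 and -2.53, and that of all genes -0.38, -0.18, -0.09 and -0.01. A member met the minimums more easily if it was high in 1 of the cell groups, so the count describes these genes and not all imprinted genes. Both sets of genes leaned the same way, with medians of -3.54, -3.53, -2.02 and -0.95 for the maternally and -2.65, -2.78, -2.58 and -2.73 for the paternally expressed members. Phlda2 and Snrpn were higher in germ cells at all 4 stages, 15 members were lower at all 4, and Ube3a, Igf2r, Slc38a4 and Mcts2 were neither at any.

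**Figure D1:**
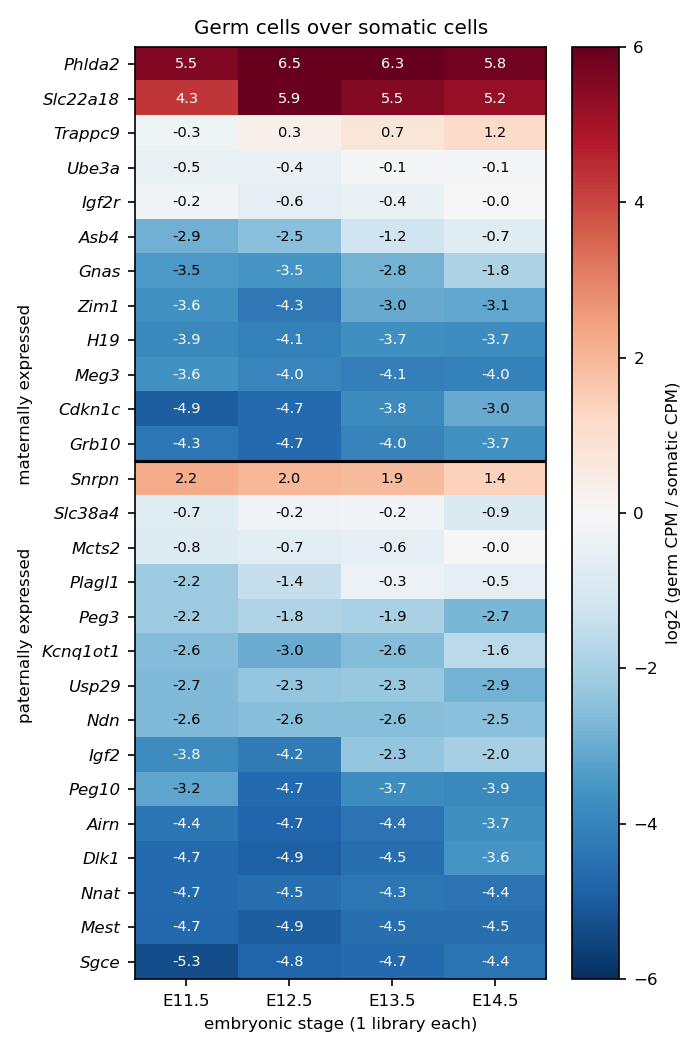
Log2 ratio of the germ cell level to the somatic level (colour and printed value) for the 27 members that reached 20 CPM in either, by stage, with maternally expressed members above the line and paternally expressed ones below it. Phlda2, Slc22a18 and Snrpn are red at every stage, while most other rows are blue.

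Among the members the largest difference toward germ cells lay in the Kcnq1 domain of distal chromosome 7, a cluster of maternally expressed genes silenced on the paternal copy by the long noncoding RNA Kcnq1ot1. Phlda2, Slc22a18 and Ascl2 were the members of this domain with more transcript in germ cells. Phlda2 and Slc22a18 are neighbours, 2210 bases apart in RefSeq. The 250 bases before the RefSeq start of each are given here on the gene's own strand (GRCm38.p6, CpG dinucleotides in capitals). Peg3, a paternally expressed gene that was lower in germ cells, is given with them. An imprint is written in CpG dinucleotides of a control region, and these windows were chosen as gene starts, not as control regions. The windows differ widely in CpG dinucleotides. They are Phlda2 at chr7:143502525-143502774 (minus strand), Slc22a18 at chr7:143473539-143473788 (plus strand), Ascl2 at chr7:142969265-142969514 (minus strand) and Peg3 at chr7:6730420-6730669 (minus strand).
Phlda2: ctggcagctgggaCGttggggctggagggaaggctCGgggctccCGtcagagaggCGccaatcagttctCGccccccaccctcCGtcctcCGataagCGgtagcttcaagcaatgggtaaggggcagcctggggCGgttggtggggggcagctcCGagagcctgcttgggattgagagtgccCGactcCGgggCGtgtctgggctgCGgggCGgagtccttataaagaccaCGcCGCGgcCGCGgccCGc
Slc22a18: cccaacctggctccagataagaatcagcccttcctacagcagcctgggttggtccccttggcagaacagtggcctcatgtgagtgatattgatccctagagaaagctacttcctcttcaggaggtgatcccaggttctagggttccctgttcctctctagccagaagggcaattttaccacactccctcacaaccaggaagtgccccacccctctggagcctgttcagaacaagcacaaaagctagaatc
Ascl2: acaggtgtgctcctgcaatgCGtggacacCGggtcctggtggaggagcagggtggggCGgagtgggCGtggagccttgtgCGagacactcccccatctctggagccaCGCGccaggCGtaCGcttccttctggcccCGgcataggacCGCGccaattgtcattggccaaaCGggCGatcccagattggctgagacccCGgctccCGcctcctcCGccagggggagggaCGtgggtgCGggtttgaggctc
Peg3: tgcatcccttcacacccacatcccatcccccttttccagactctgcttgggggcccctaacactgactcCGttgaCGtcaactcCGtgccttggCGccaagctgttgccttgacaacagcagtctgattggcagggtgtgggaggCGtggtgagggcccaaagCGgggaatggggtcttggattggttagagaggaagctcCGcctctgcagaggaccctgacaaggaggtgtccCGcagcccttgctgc
RefSeq's span of Phlda2 reaches 621 bases, that of Slc22a18 63 and that of Peg3 43 bases before the start used here, so the Phlda2 window lies inside the annotated gene and the Slc22a18 and Peg3 windows lie partly inside theirs. The Phlda2 window holds 21 CpG dinucleotides, the Ascl2 window 19, the Peg3 window 8 and the Slc22a18 window 0. The genes of the domain with more transcript in germ cells thus did not share a CpG-rich start. RefSeq promoter windows (250 bases before to 50 after a start) were found for 32 of the 40 listed genes. A ratio of observed to expected CpG of at least 0.6 was met in at least 1 window of 19 of these 32 genes (59.4%), against 38.6% of all genes in the table. The letters TGCCGC, which contain the site bound by the imprint-protecting protein ZFP57 when methylated, were found on either strand for 11 of 32 members (34.4%) and for 13.1% of all genes. By parental class they were found for 3 of 13 maternally and 8 of 19 paternally expressed members. A match of letters is a description and not a bound site, and members with several listed starts had more windows to match in.

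Phlda2, a small protein that restrains growth of the placenta, measured 414 (400 to 428), 667 (656 to 679), 624 (613 to 636) and 411 CPM (405 to 417) in germ cells. Somatic cells held 8.86, 7.27, 8.05 and 7.34 CPM. The germ cell level was 46.7, 91.7, 77.6 and 56.0 times the somatic level, with log2 ratios of 5.54 (5.42 to 5.67), 6.52 (6.38 to 6.67), 6.28 (6.13 to 6.43) and 5.81 (5.59 to 6.04). No named somatic class exceeded 12.8 CPM, the value of pre-granulosa cells at E11.5. To set aside the deeper germ cells, each cell was thinned to 2000 UMIs. A Phlda2 UMI was then found in 47.8, 69.1, 64.3 and 41.7% of germ cells and in 1.39, 1.09, 1.71 and 1.52% of somatic cells, and without thinning in 98.4, 98.5, 97.9 and 76.0% against 8.11, 8.11, 8.90 and 8.0%. The 6 germ cell markers themselves summed to 3317, 2904, 2179 and 2297 CPM in germ cells and to 21.8, 22.1, 28.4 and 42.1 CPM in somatic cells. The germ cell level at E12.5 and E13.5 stood above both ends of the series.

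Slc22a18, a transporter of the same domain, measured 12.8, 17.7, 29.2 and 29.9 CPM in germ cells and 0.65, 0.29, 0.65 and 0.80 CPM in somatic cells. It met the minimum of 20 CPM at E13.5, where its log2 ratio was 5.49 (4.96 to 6.07), and at E14.5, where it was 5.22 (4.56 to 5.99). The ratio was 4.31 and 5.92 at the earlier stages, below that minimum. Ascl2, a transcription factor needed in the placenta, stayed under the minimum at every stage. Its germ cell level was 2.14 (1.25 to 3.43), 4.17 (3.31 to 5.19), 7.0 (5.88 to 8.28) and 10.6 CPM (9.61 to 11.6), and its somatic level 0.43, 0.42, 0.26 and 0.40 CPM. Each germ cell interval of these genes lay above the somatic interval of the same stage.

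The rest of the domain leaned the other way. Cdkn1c, an inhibitor of the cell cycle and the member most at odds with its neighbours, measured 78.9, 77.7, 108 and 192 CPM in germ cells and 2398, 1963, 1513 and 1573 CPM in somatic cells. Germ cells therefore held 3.29, 3.96, 7.10 and 12.2% of the somatic level. Pre-granulosa cells, the class highest in Cdkn1c, were 2483 of 4389 somatic cells at E11.5 and 639 of 1975 at E14.5. Shares of the somatic level, here and below, are thus not set against the same mix of cells at each stage. Slc22a18 begins 12666 bases beyond Cdkn1c in RefSeq, so genes of opposite lean sit side by side. Kcnq1ot1, the paternally expressed noncoding RNA of the domain, measured 19.2, 25.6, 29.0 and 68.4 CPM in germ cells and 118, 203, 178 and 207 CPM in somatic cells, or 16.2, 12.6, 16.3 and 33.1%. It lies antisense within Kcnq1, which measured at most 0.59 CPM in germ cells and 3.34 CPM in somatic cells. The counting of strand is not given in the sources used here, so reads of an antisense pair are not certain to be told apart.

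**Figure D2:**
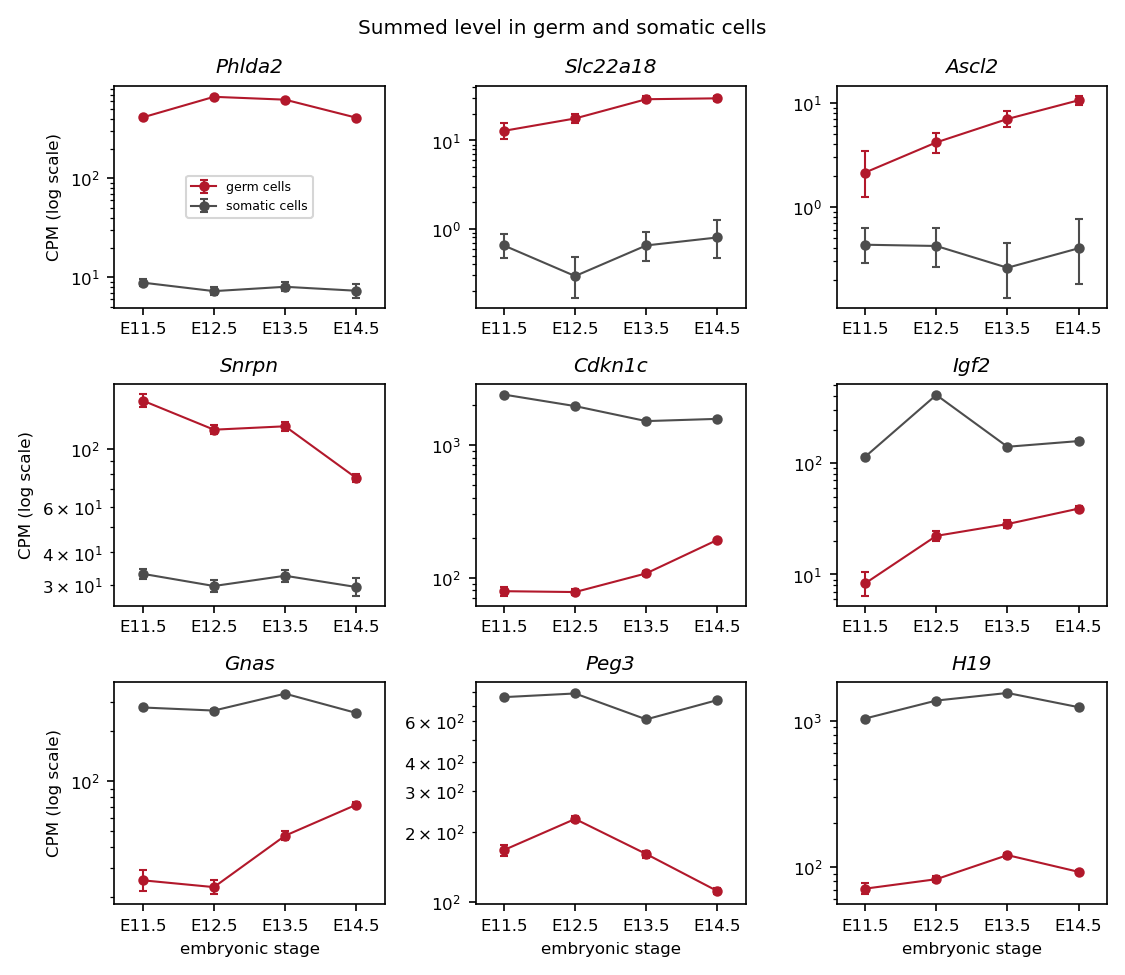
Summed level in CPM (log axis) of 9 members in germ cells (red) and somatic cells (grey) at each stage, with exact Poisson 95% intervals as bars. Phlda2, Slc22a18, Ascl2 and Snrpn run above the somatic line throughout, and Cdkn1c, Igf2 and Gnas run below it with a climbing germ cell line.

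Snrpn, which encodes a protein of the spliceosome and is paternally expressed, was the only paternally expressed member called higher in germ cells. It measured 153 CPM (144 to 162), 118 (114 to 123), 122 (117 to 127) and 77.2 (74.6 to 80.0) in germ cells and 33.1, 29.8, 32.6 and 29.5 CPM in somatic cells. The log2 ratio was 2.21, 1.99, 1.90 and 1.39, lowest at E14.5. Its neighbours in the same domain on chromosome 7 did not share this. Ndn, a MAGE family protein, measured 25.7, 21.9, 22.2 and 28.0 CPM in germ cells against 161, 130, 133 and 161 CPM in somatic cells, an even 16.0, 16.9, 16.7 and 17.4%. Ube3a, a ubiquitin ligase whose imprint is known from neurons, measured 84.9, 113, 117 and 166 CPM in germ cells and 116, 149, 127 and 175 CPM in somatic cells, within a factor of 2 at every stage. Magel2, Mkrn3 and Peg12 of this domain stayed under 20 CPM in germ cells and in the pooled somatic cells.

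The classical H19 and Igf2 pair were both lower in germ cells. H19, a maternally expressed noncoding RNA, measured 71.0, 82.4, 120 and 92.5 CPM in germ cells and 1037, 1376, 1551 and 1240 CPM in somatic cells. After thinning, an H19 UMI was found in 14.3, 12.6, 13.2 and 12.2% of germ cells and in 77.2, 87.2, 87.9 and 84.5% of somatic cells, and without thinning in 81.6, 74.8, 77.2 and 49.5% of germ cells and at least 99.4% of somatic cells. Igf2, the paternally expressed fetal growth factor, measured 8.32, 22.2, 28.4 and 39.0 CPM in germ cells and 114, 410, 140 and 158 CPM in somatic cells. Its germ cell share of the somatic level went from 7.28 and 5.41% to 20.2 and 24.7%, while that of H19 stayed between 5.98 and 7.77%. The 2 genes of the pair thus did not keep 1 ratio in germ cells.

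Dlk1, a transmembrane relative of Notch ligands that is paternally expressed, measured 7.18, 5.68, 12.7 and 25.3 CPM in germ cells and 183, 168, 296 and 298 CPM in somatic cells. Meg3, the maternally expressed noncoding RNA of the same domain, measured 36.7, 35.1, 54.4 and 55.8 CPM in germ cells and 460, 543, 926 and 915 CPM in somatic cells. Both were called lower at all 4 stages, at 3.39 to 8.49% and 5.88 to 7.97% of the somatic level. Mirg and Rtl1 of this domain were near the floor, and Rtl1 had 0 UMIs in germ cells at the first 3 stages and 3 at E14.5.

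In the Peg3 domain, Peg3, a zinc finger protein, measured 168, 228, 161 and 112 CPM in germ cells and 763, 792, 612 and 741 CPM in somatic cells. Usp29, a ubiquitin peptidase that starts back to back with it so that their promoter windows share 263 bases, measured 6.93, 8.19, 7.78 and 4.45 CPM in germ cells and 43.8, 40.4, 38.0 and 32.1 CPM in somatic cells. Both lay at a raised share of the somatic level, 15 to 28.8% and 13.9 to 20.5%, and both shares were lowest at E14.5. Zim1, a maternally expressed neighbour, measured 1.64, 0.78, 2.11 and 1.87 CPM in germ cells and 20.1, 15.1, 17.0 and 16.1 CPM in somatic cells, and met the minimum at E11.5 only, where it was lower.

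In the Peg10 domain, Peg10, a gene derived from a retrotransposon, measured 2.77, 1.41, 3.14 and 1.77 CPM in germ cells and 25.0, 36.2, 41.5 and 25.8 CPM in somatic cells. Its head-to-head neighbour Sgce, a sarcoglycan, measured 0.88, 1.30, 1.65 and 2.73 CPM against 35.0, 36.5, 42.2 and 56.4 CPM, or 2.52 to 4.83%, with the lowest single share (at E11.5) among members called lower at all stages. Asb4, a maternally expressed adaptor of ubiquitin ligases, behaved otherwise. It measured 8.57, 8.60, 11.6 and 9.09 CPM in germ cells while somatic cells went from 63.9 to 49.4, 26.4 and 14.9 CPM, so it was lower in germ cells at the first 3 stages and below the minimums at E14.5.

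The other members lower at all stages came from separate loci and were Gnas, Grb10, Mest and Nnat. Gnas, the stimulatory G protein alpha subunit, measured 25.3, 23.0, 47.0 and 72.2 CPM in germ cells and 278, 267, 337 and 258 CPM in somatic cells. Its imprinted transcripts differ in their first exons and share the 3′ end, so this 3′ count does not separate them. Grb10, an adaptor that dampens insulin and growth factor signalling, measured 4.79, 4.64, 6.75 and 8.40 CPM against 95.4, 116, 109 and 106 CPM. Mest, a paternally expressed hydrolase, measured 24.9, 19.8, 27.0 and 19.2 CPM against 647, 607, 615 and 440 CPM. Nnat, a small membrane protein nested in an intron of Blcap, measured 6.55, 7.35, 7.72 and 6.53 CPM against 167, 168, 155 and 140 CPM. Gnas climbed to 28.0% of the somatic level at E14.5, whereas Mest and Nnat stayed under 5%.

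Plagl1, a zinc finger transcription factor, was lower in germ cells at E11.5 (6.17 against 28.4 CPM) and E12.5 (12.52 against 32.2 CPM) and was neither at E13.5 (32.2 against 41.0 CPM) and E14.5 (27.1 against 39.4 CPM). Trappc9, part of a complex that tethers transport vesicles, measured 6.05, 9.02, 13.7 and 20.2 CPM in germ cells and 7.32, 7.37, 8.35 and 9.07 CPM in somatic cells and was called higher at E14.5. Igf2r, the receptor that clears IGF2, measured 20.8, 20.3, 23.6 and 35.5 CPM in germ cells and 23.3, 30.7, 31.0 and 36.2 CPM in somatic cells. Airn, the noncoding RNA that runs antisense through the start of Igf2r, measured 0.63, 0.57, 0.93 and 1.67 CPM against 13.1, 15.4, 20.2 and 21.5 CPM, and was lower at E13.5 and E14.5, where it met the minimum. Igf2r and its antisense partner thus differed in their germ cell share, at 66.3 to 98.3% and 3.72 to 7.76% of the somatic level. Slc38a4, an amino acid transporter, measured 22.6, 21.4, 20.3 and 13 CPM in germ cells and 37.2, 24.5, 22.5 and 23.9 CPM in somatic cells. Mcts2 measured 30.7, 27.5, 23.8 and 28.9 CPM against 52.1, 44.2, 35.6 and 29.4 CPM, and reads of its near-identical relative Mcts1 may be counted with it. The 11 members under 20 CPM throughout (Ascl2, Impact, Magel2, Mirg, Mkrn3, Nap1l5, Peg12, Rtl1, Slc22a3, Zdbf2 and Zrsr1) reached at most 12.1 CPM in germ cells and 18.6 CPM in somatic cells.

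Somatic transcripts were also found in droplets counted as germ cells, and their level sets a scale for the low members. The 13 pre-granulosa markers summed to 7.03, 6.90, 7.69 and 8.30% of their somatic level in germ cells, the 12 interstitial markers to 3.79, 3.70, 3.88 and 6.06%, and the 9 mesothelial markers to 5.31, 5.56, 6.08 and 5.74%. Single markers of these lists ranged from 1.37 to 54.7%, and 1 mesothelial marker was at 0 UMIs at E11.5. The endothelial list summed to 39.4, 29.3, 40.1 and 25.5%, with a median marker at 16.8, 10.5, 13.6 and 10.7%. Red blood cell markers were at 238, 174, 154 and 176% of the somatic level. Of the 15 members lower at all stages, 5 exceeded the highest value of the first 3 lists at all 4 stages (Kcnq1ot1, Peg3, Usp29, Ndn and Gnas) and 4 at none (Sgce, Grb10, Mest and Nnat). The last 4 did not exceed the highest of these 3 sums at any stage, so no level above these sums was detected for them here. The yardstick matters for this reading. The median marker of the 3 lists lay at 3.37 to 5.55% over the stages. The highest shares were 7.95% for Grb10, 4.97% for Nnat, 4.83% for Sgce and 4.39% for Mest. H19, Dlk1, Cdkn1c, Meg3 and Peg10 exceeded it at 1 stage and Igf2 at 3. When 6, 30, 29 and 208 germ cells rich in such markers or in red blood cell markers were left out, a choice made after seeing the data, the marker lists fell by construction. The same 5 members then exceeded the lists at all 4 stages, while H19 took the place of Grb10 among the 4 that exceeded them at none, and Grb10 exceeded them at 1. The part of carried-over somatic RNA in the remaining low values was not tested.

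**Figure D3:**
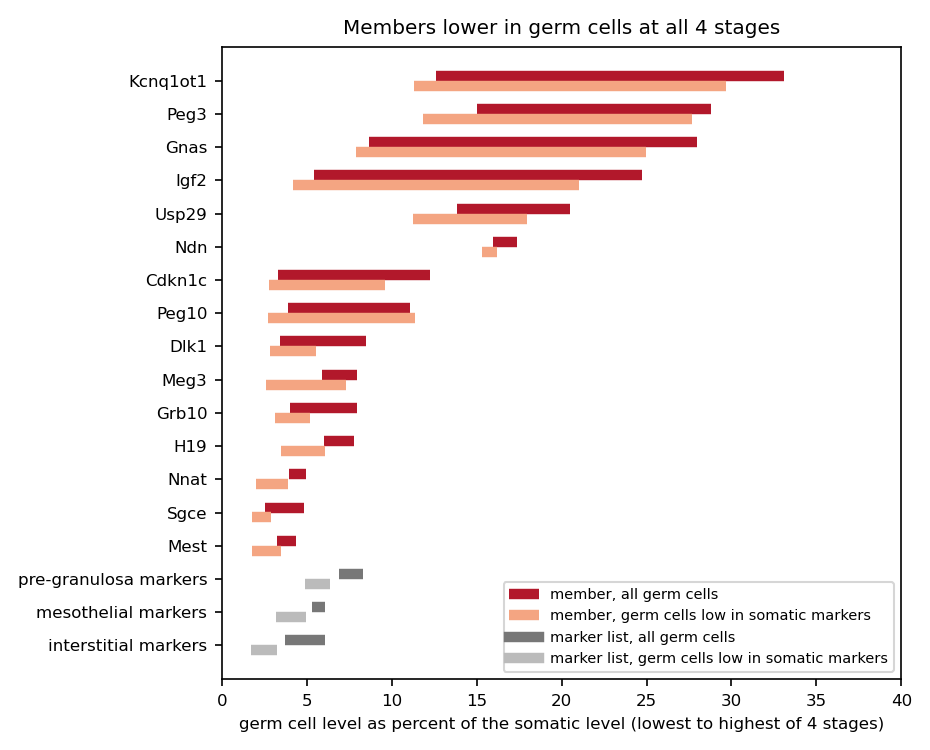
Germ cell level as a percent of the somatic level, drawn as a bar from the lowest to the highest of the 4 stages, for the 15 members lower at all stages (red, and pale red without germ cells rich in somatic markers) and for 3 somatic marker lists (grey). Kcnq1ot1, Peg3, Usp29 and Ndn lie wholly to the right of the marker bars, and Mest, Sgce and Nnat lie on or left of them.

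Summed over members, maternally expressed genes made up 769, 1065, 1166 and 1106 CPM in germ cells and 4514, 4531, 4662 and 4359 CPM in somatic cells. Paternally expressed genes made up 514, 551, 531 and 485 CPM and 2474, 2792, 2462 and 2458 CPM. In germ cells Phlda2 alone gave 53.8, 62.6, 53.5 and 37.1% of the maternal sum. In somatic cells Cdkn1c or H19 led it. The paternal sum in germ cells was led at every stage by Peg3, at 32.6, 41.4, 30.3 and 23.0%.

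The next comparison asked how the members changed within germ cells over the stages that span the start of meiosis. Of 19 members that met the minimums, 8 were higher at E14.5 than at E11.5, against 22.4% of all genes, and 0 were lower, against 8.05%. Germ cell levels of all genes had a median log2 ratio of 0.29 in this comparison, and the members 0.77. Igf2 rose by a log2 ratio of 2.23 (1.88 to 2.61), Plagl1 by 2.13 (1.72 to 2.58), Kcnq1ot1 by 1.84 (1.60 to 2.08), Dlk1 by 1.82 (1.43 to 2.23), Trappc9 by 1.74 (1.32 to 2.19), Gnas by 1.51 (1.30 to 1.73), Cdkn1c by 1.29 (1.17 to 1.41) and Slc22a18 by 1.22 (0.93 to 1.53). These 8 include both parental classes, 4 maternally and 4 paternally expressed. Scaling by median-of-ratios, which sets the shift of all genes to 0, left 6 of the 8, with Cdkn1c at 0.99 and Slc22a18 at 0.93, and called 2 members lower, Snrpn at -1.28 and Slc38a4 at -1.08. With doublets kept, Cdkn1c was at 0.94 and lost its call.

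The timing differed between them. Between E11.5 and E12.5 only Igf2 rose past the size rule (1.42, with 1.98% of all genes called higher and 0.245% lower). Between E12.5 and E13.5 it was Gnas (1.03) and Plagl1 (1.36), with 0.84% of all genes called higher and 0.605% lower. Between E13.5 and E14.5 it was Kcnq1ot1 (1.24), with 8.28% higher and 2.33% lower. No member was called lower in any of these steps. From E11.5 to E12.5 Igf2 also rose in every named somatic class. Its germ cell share of the somatic level went from 7.3 to 5.4% in this step. The pre-granulosa markers were at 6.9% of their somatic level in germ cells at E12.5. The part of carried-over somatic RNA in the Igf2 rise was not tested. Phlda2 at E14.5 stood where it had stood at E11.5 (-0.01, -0.06 to 0.04). Snrpn came just short of the rule at -0.98 (-1.08 to -0.89), Peg3 was at -0.59 and Ube3a at 0.97. Over the same interval the interstitial markers in germ cells went from 23.3 to 105 CPM and the pre-granulosa markers from 92.4 to 167 CPM. Without germ cells rich in those markers or in red blood cell markers, Igf2 was at 2.05, Plagl1 at 2.08, Kcnq1ot1 at 1.77, Gnas at 1.42, Cdkn1c at 1.10 and Dlk1 at 1.29. Dlk1 then no longer met the minimum level, 7 members were called higher and Mest was called lower.

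**Figure D4:**
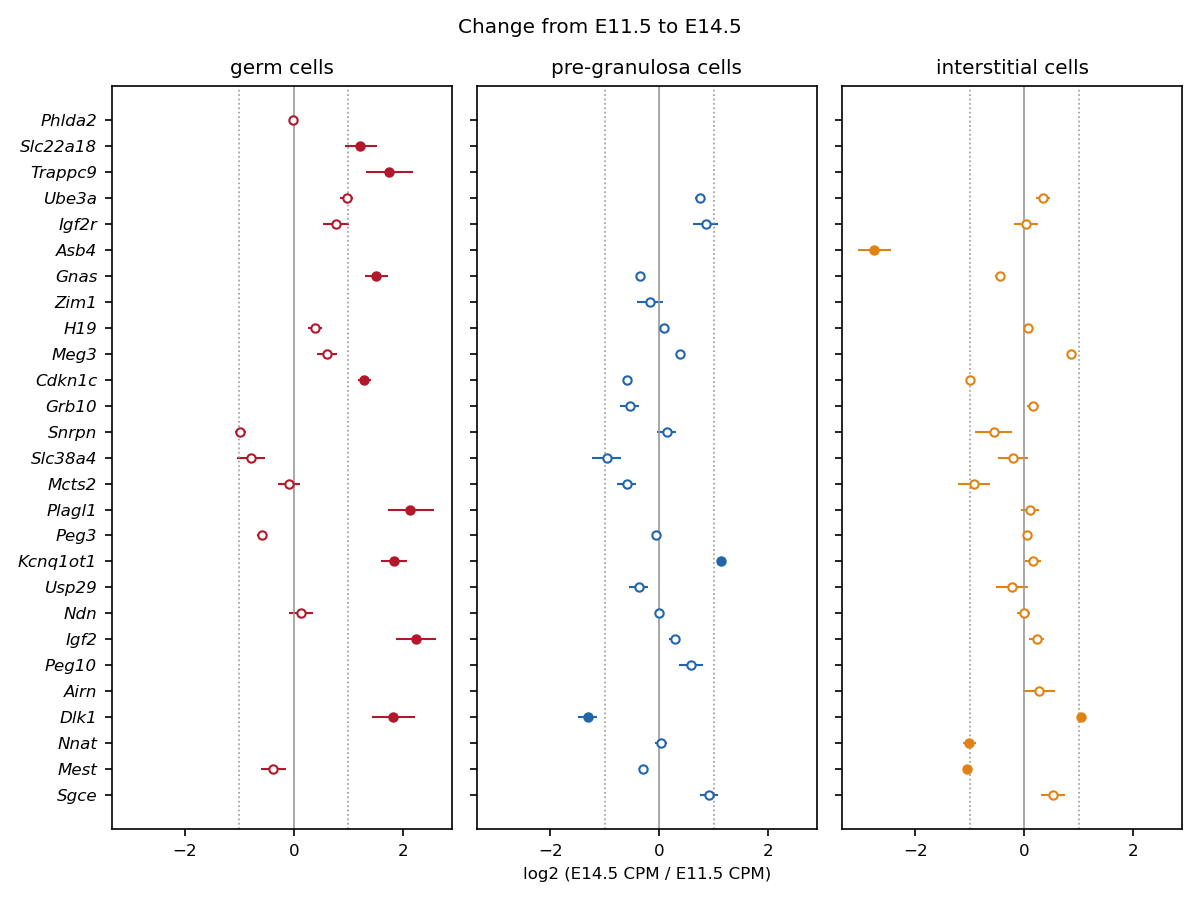
Log2 ratio of the E14.5 to the E11.5 level with exact binomial 95% intervals, for members that met the minimums in germ, pre-granulosa and interstitial cells. Filled points met the size rule and open points did not, and dotted lines mark a ratio of 2. Germ cells have 8 filled points, all to the right.

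Germ cells at E13.5 were also split by Stra8, a gene switched on by retinoic acid as meiosis begins. Of 756 cells, 385 had a Stra8 UMI (median 22832 UMIs per cell) and 371 had none (median 25913). Of 17 members that met the minimums, 0 were higher and 0 lower, against 0.617 and 0.463% of all genes. Gnas was at a log2 ratio of 0.76 (0.57 to 0.96), H19 at -0.66 (-0.79 to -0.54), Peg3 at -0.49 (-0.59 to -0.38) and Phlda2 at -0.24 (-0.29 to -0.19). Cells without a Stra8 UMI can still hold its transcript, so the split is blurred.

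The next comparison set interstitial against pre-granulosa cells. Of 26, 25, 25 and 23 members that met the minimums, 10, 6, 7 and 4 were higher in interstitial cells, against 11, 9.61, 9.38 and 10.7% of all genes, and 1, 1, 4 and 4 were lower, against 9.57, 8.74, 10.5 and 12%. Dlk1, Meg3, Grb10 and Plagl1 were higher at all 4 stages and Cdkn1c was lower at all 4. Dlk1 measured 340, 385, 730 and 701 CPM in interstitial and 104, 61.4, 49.2 and 41.9 CPM in pre-granulosa cells, so the log2 ratio went from 1.71 to 2.65, 3.89 and 4.06. Meg3 measured 1209, 1240, 2173 and 2178 CPM and 210, 246, 307 and 273 CPM. Both genes of this oppositely imprinted pair were thus high in the same class. Cdkn1c measured 987, 624, 440 and 494 CPM in interstitial and 3704, 3160, 2440 and 2465 CPM in pre-granulosa cells. Plagl1 measured 80.5, 60.0, 86.3 and 86.6 CPM and 7.16, 7.53, 7.72 and 9.27 CPM. Kcnq1ot1, Snrpn and Peg10 were lower in interstitial cells at E13.5 and E14.5, and Peg12 and Asb4 were higher at the first 3 stages. Without clusters 7 and 9, 10, 7, 7 and 5 members were higher and 1, 1, 3 and 4 lower. The shares of all genes above belong to the full classes and are not given for these reduced ones.

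Across the 4 named somatic classes, 16 members had the same highest class at every stage. The share of all genes with a constant highest class is not given here, so the count describes these members only. Pre-granulosa cells were highest for Cdkn1c, Kcnq1ot1, Mcts2, Peg3, Snrpn, Usp29 and Zim1, interstitial cells for Airn, Dlk1 and Meg3, mesothelial cells for Peg10, and endothelial cells for Asb4, Gnas, Igf2, Mest and Plagl1. For Airn and Peg10 the lead over the second class was within counting error at every stage, so their highest class is not settled. Peg10 at E14.5, for example, was at 34.4 against 33.1 CPM in endothelial cells. The lead was also within counting error for Kcnq1ot1 at E11.5 (133 against 128 CPM in mesothelial cells) and for Snrpn at E12.5 and E14.5. Endothelial cells stood well apart for Mest, at 2772, 2370, 2024 and 1497 CPM, where interstitial cells were second with 985, 788, 744 and 474 CPM. They also led for Gnas, at 699, 734, 946 and 1004 CPM, and for Plagl1, at 239, 222, 203 and 148 CPM. Peg3, by contrast, was lowest in endothelial cells, at 186, 155, 325 and 373 CPM against 995, 988, 739 and 960 CPM in pre-granulosa cells. The endothelial sums rest on 158, 192, 128 and 59 cells and the mesothelial ones on 69, 337, 391 and 441 cells. The endothelial class also changed in make-up. Its own markers summed to 4502, 4003, 3051 and 3016 CPM, and the pre-granulosa markers in it to 156, 249, 1028 and 1088 CPM. The part of this change in the endothelial values by stage was not tested.

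**Figure D5:**
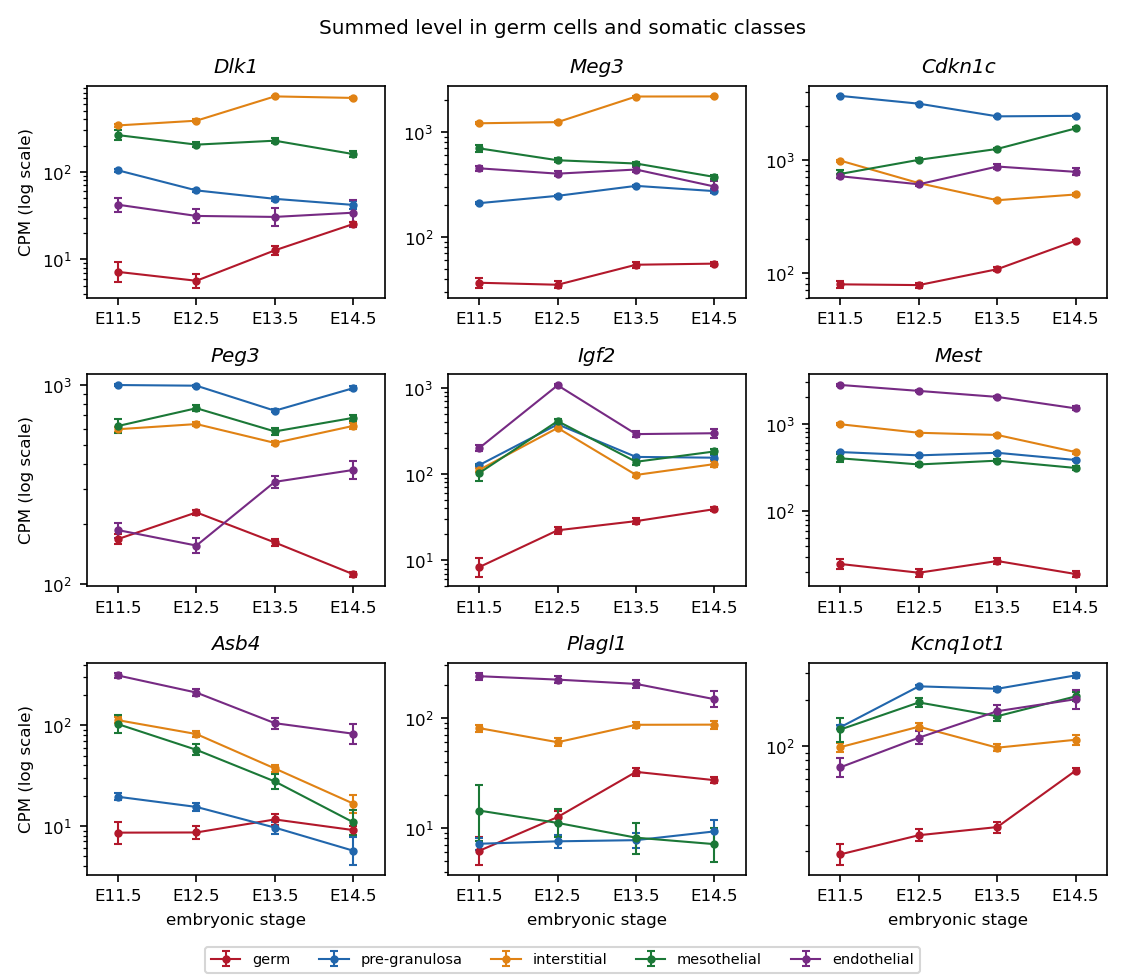
Summed level in CPM (log axis) of 9 members in germ cells and 4 somatic classes by stage, with exact Poisson 95% intervals. Dlk1 and Meg3 are highest in interstitial cells, Cdkn1c and Peg3 in pre-granulosa cells and Igf2, Mest, Asb4 and Plagl1 in endothelial cells, while Igf2 peaks at E12.5 in every somatic class.

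Igf2 had a peak at E12.5 in every somatic class. It measured 127, 375, 157 and 154 CPM in pre-granulosa, 111, 341, 97.3 and 130 CPM in interstitial, 102, 409, 138 and 182 CPM in mesothelial and 200, 1065, 289 and 296 CPM in endothelial cells. The rise to E12.5 was 1.57 in pre-granulosa and 1.62 in interstitial cells (log2), against 2.12 and 1.89% of all genes called higher, and the fall to E13.5 was -1.25 and -1.81, against 0.641 and 1.28% called lower. It was the only member called in pre-granulosa cells in these steps, where 1.86% of all genes were lower at the first and 0.659% higher at the second, and no member was called from E13.5 to E14.5, where 0.543% were higher and 0.39% lower. In germ cells of the same libraries Igf2 was not lower after E12.5. The peak rests on the single E12.5 library, whose part in it cannot be told apart from that of the stage. Red blood cell markers in the endothelial class summed to 1047, 5802, 944 and 1161 CPM, so that class also differed in make-up at E12.5. In pre-granulosa, interstitial and mesothelial cells these markers were lowest at E12.5, at 669, 602 and 617 CPM. The part of this difference in the endothelial Igf2 value was not tested.

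From E11.5 to E14.5, pre-granulosa cells had 1 member higher of 21, Kcnq1ot1 at a log2 ratio of 1.14 (1.06 to 1.21), against 6.33% of all genes, and 1 lower, Dlk1 at -1.31 (-1.49 to -1.14), against 3.35%. Interstitial cells had 1 higher of 24, Dlk1 at 1.04 (0.98 to 1.11), against 3.46%, and 3 lower, Asb4 at -2.75 (-3.06 to -2.45), Mest at -1.06 and Nnat at -1.01, against 2.32%. Asb4 went from 112 to 81.7, 37.2 and 16.7 CPM in interstitial cells, and from 312 to 211, 105 and 82.3 CPM in endothelial cells. Its last step in interstitial cells, -1.16, was the only member call from E13.5 to E14.5 there, with 0.467% of all genes lower. The endothelial class changed in make-up over these stages, with pre-granulosa markers in it at 156, 249, 1028 and 1088 CPM. The part of this change in the endothelial Asb4 values was not tested. Different clusters hold most of the pre-granulosa class at the first and the last stage, clusters 1 and 3 at E11.5 and cluster 20 at E14.5, with 4 to 5 of 13 markers raised in the former and 9 in the latter. The interstitial class shifted too: cluster 10 held 339 of its 663 cells at E11.5 and 0 of 557 at E14.5, and cluster 19 held 15 and 170. Within cluster 2, the largest (274 and 322 cells), Dlk1 was at 0.71 (0.61 to 0.81), below the size rule, while Asb4 was at -2.68, Mest at -1.28 and Nnat at -1.12. The fall of Dlk1 in pre-granulosa cells was -0.88 with coarser clusters and -0.84 without cluster 9, each of which ends its call. The rise of Dlk1 in interstitial cells was 0.96 without cluster 7, which ends that call, and the falls of Mest and Nnat were -0.93 and -0.88 with median-of-ratios scaling.

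Genes that keep or remove methylation at imprints were compared beside the members. Of 16 listed, 11 met the minimums in germ against somatic cells at each stage, with 4, 4, 5 and 3 higher and 4, 4, 3 and 4 lower. All genes gave 11.8, 14.2, 17.4 and 17.9% higher and 31.4, 27.9, 27.3 and 25.9% lower. Dppa3, which protects methylated DNA in the early embryo, measured 836, 761.5, 616 and 473 CPM in germ cells and 3.59, 4.23, 5.73 and 7.34 CPM in somatic cells. Dnmt1, the maintenance methyltransferase, measured 98.3, 138, 129 and 172 CPM against 41.6, 66.1, 40.5 and 62.3 CPM. Its partner Uhrf1 went from 7.43 and 7.77 to 18.3 and 43.8 CPM in germ cells, where it was lower than in somatic cells at the first 2 stages and was called higher at E14.5 than at E11.5. Zfp57, which guards imprints, was lower in germ cells at all 4 stages, at 1.39, 1.15, 1.44 and 2.41 CPM against 20.9, 27.3, 22.3 and 31.7 CPM. Tet1, a demethylating enzyme active in primordial germ cells, measured 52.5, 114, 76.2 and 40.1 CPM against 11.7, 22.3, 15.1 and 22.6 CPM and was called higher at the first 3 stages.

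Of 12 genes of the insulin-like growth factor axis, in which Igf2, Igf2r and Grb10 act, 8, 8, 9 and 9 met the minimums. In germ cells 7, 6, 7 and 6 were lower and 0, 0, 1 and 0 were higher, the 1 being Igf2bp1, beside the same shares of all genes. Igf1r, the receptor through which IGF2 signals, went from 3.53 and 5.53 to 14.7 and 27.1 CPM in germ cells against 33.4, 43.7, 47.5 and 47.9 CPM in somatic cells, and was among 3 of 7 called higher at E14.5 than at E11.5 in germ cells (22.4% of all genes), with Igfbp5 and Igf2bp2. Igfbp5, which binds IGFs outside the cell, measured 7.18, 8.50, 12.6 and 24.6 CPM in germ cells and 187, 166, 288 and 433 CPM in somatic cells. It was higher in interstitial than in pre-granulosa cells at all 4 stages. Interstitial markers in germ cells went from 23.3 CPM at E11.5 to 105 CPM at E14.5, and their part in its rise there was not tested. Among hosts and neighbours of nested members, H13, the host of Mcts2, was lower in germ cells at all 4 stages (12, 8.71, 11.2 and 16.0 CPM against 71.6, 52.8, 64.2 and 72.6 CPM), which Mcts2 was not at any. Copg2, which overlaps the end of Mest, was higher in germ cells at E13.5 and E14.5 (33.5 and 48.8 against 16.6 and 19 CPM), opposite to Mest.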

How the data were processed

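The table deposited by the authors holds 19321 genes and 19387 cells from 1 library at each of 4 stages, assigned by the prefix of the cell name. The authors had scaled each cell to 10000 and deposited natural log values, ln(1 + UMIs / UMIs of the cell × 10000), as the values themselves show. Taken back to a linear scale and divided by the cell's lowest nonzero value, all 69792436 values above 0 (100%) came out whole (tolerance 1e-06), and UMI counts recovered this way were used, where the plan had assumed a count table. Per the submitters' processing notes, Cell Ranger 2.2.0 and mm10 were used. Other steps are not given in the sources used here. The libraries held 4916, 4842, 4842 and 4787 cells and 80377418, 78223391, 69458291 and 72506090 UMIs, with a lowest cell total of 8823, 9791, 5407 and 7854.

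Cells over 20% mitochondrial UMIs (3, 1, 1 and 0) and called doublets (120, 105, 95 and 94, Scrublet score, assumed rate 0.06) were removed. Cells that were not germ cells were clustered (scanpy 1.11.5, igraph 0.11.9, 2000 variable genes, 30 components, 15 neighbours, Leiden resolution 1), with members and germ cell markers left out. A cluster was named with at least 3 raised markers (CPM plus 5 at least 2 times the median cluster, in at least 10% of cells), unless another type came close, a limit set after the clusters had been seen. Of the somatic cells, 1016, 616, 270 and 279 stayed unnamed. Ratios carry exact binomial, levels exact Poisson intervals. The size rule was tested on simulated data. The members and lists were chosen with earlier results of these data known. Members at 20 CPM or more in germ or somatic cells of any stage are described with all 4 values. Promoter windows and positions come from RefSeq (GRCm38.p6).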

Additional observations from a re-analysis of the deposited data

Results flagged for a closer look

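Dlk1 changed in opposite directions between E11.5 and E14.5 in cells of the same libraries. Its log2 ratio was -1.31 in pre-granulosa cells, 1.04 in interstitial cells and 1.82 in germ cells, with 1 library per stage in each case. The difference between the classes was not tested. In germ cells it moved with the interstitial markers, which went from 23.3 to 105 CPM, and their part in it was not tested. Different clusters held most of the pre-granulosa class at these stages, and in the interstitial class cluster 10 went from 339 cells to 0 and cluster 19 from 15 to 170. The direction was the same under the alternatives run, but several ended a call. In pre-granulosa cells these were coarser clusters (-0.88) and leaving out cluster 9 (-0.84). In interstitial cells they were keeping doublets and the mean of per-cell CPM (both 0.98), coarser and finer clusters (0.87 and 0.86), leaving out cluster 7 (0.96) and cluster 2 alone (0.71). In germ cells, leaving out those rich in somatic or red blood cell markers gave 1.29 at a level below the 20 CPM minimum.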

How the results depend on the processing

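No paired analysis was possible between stages because each stage has 1 library. Germ and somatic cells share a library at each stage, and a test over these 4 pairs, which are different stages, was not run. Over 130 member ratios that met the size rule, 1300 recomputed values held 0 reversals. These ratios had been picked for a size of 2 or more and were recomputed from largely the same cells, so reversals were unlikely from the start. Many still moved beyond their counting interval: 52 of 130 with doublets kept, 42 each under median-of-ratios scaling and in germ cells low in markers, 32 with 5 of 6 germ cell markers, and 8 to 20 under the other alternatives. Counts of members that moved by more than 1.5 times follow. Shares of all genes under the changed settings are not given, here or above, so these counts are not set against them. With a ratio of 4, germ against somatic cells had 1 member higher at E12.5 and 2 at E14.5. Interstitial against pre-granulosa cells then had 3 higher and 0 lower at E11.5, 3 higher and 1 lower at E13.5, and 1 lower at E14.5. For E14.5 against E11.5 the same limit left 2 higher in germ cells, 0 and 0 in pre-granulosa cells, and 0 higher and 1 lower in interstitial cells. Without a UMI or CPM minimum, 4 members were higher in germ cells at E11.5 and 4 at E12.5, 3 and 2 were lower in interstitial cells at these stages, and 9 were higher there at E14.5. For the change from the first to the last stage this gave 13 higher and 3 lower in germ cells, 3 and 3 in pre-granulosa cells and 3 higher in interstitial cells, and 3 higher in the Stra8 split. Median-of-ratios scaling called 2 lower in interstitial cells at E11.5 and at E12.5, and over the stages 2 lower in germ cells and 1 lower in interstitial cells. A common minimum of 9791 UMIs per cell gave 2 lower in interstitial cells at E11.5 and 2 higher over the stages. The mean of per-cell CPM gave 2 lower in interstitial cells at E12.5, and over the stages 1 lower in germ cells and 0 higher in interstitial cells. Germ cells low in somatic and red blood cell markers, an alternative chosen after seeing the data, had 1 lower over the stages (Mest, -1.55). Somatic cells without a germ cell marker gave 2 higher and 3 lower in pre-granulosa cells. Keeping doublets, or clusters at resolution 0.5 or 2, or leaving out clusters 7 and 9 (chosen after seeing the data), left 0 higher in interstitial cells over the stages, and resolution 0.5 left 0 lower in pre-granulosa cells. The cause of these moves was not tested. All 16 shares of cells with a UMI changed by more than their interval when thinned to 4000 UMIs or not thinned, which follows from the depth used.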
